A study of Mus musculus with 12 samples.

Results

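The receptor chains that carry IL-2, IL-4, IL-7, IL-9, IL-15 and IL-21 signals into lymphocytes were followed across cultured mouse splenic CD8 T cells. The genes were chosen by symbol, with earlier results of these data known, and they were Il2rg, Il2rb, Il2ra, Il15ra, Il7r, Il4ra, Il9r and Il21r, 8 of the 20778 genes in the count table. All 8 passed the filter on low counts, which left 12122 genes. The cells came from C57BL/6 mice, were isolated with MojoSort magnetic beads and were held in culture for 6 h. Untreated cells (Naïve) were compared with cells given an antibody to CD3 (αCD3), 70 ng/ml interferon gamma (IFNγ) or bacterial lipopolysaccharide (LPS), with 3 mRNA libraries in each of the 4 groups. The labels give αCD3 and LPS at 1 µg/ml in one place and in mg/ml in another, and they give an age of 6 weeks where the study's methods give an older one, so both are uncertain. No source used here says whether the 3 libraries of a group came from separate mice, and p-values therefore measure only the spread between these libraries, which may be technical.

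The common gamma chain (γc), encoded by Il2rg, has no specificity of its own. It pairs with a partner chain for IL-4, IL-7, IL-9 or IL-21, and with the beta chain encoded by Il2rb for IL-2 and IL-15. Janus kinase 3 (Jak3) binds γc and Jak1 binds the partner chain, and the pair phosphorylates STAT proteins, mainly STAT5 for IL-2, IL-7, IL-9 and IL-15, STAT6 for IL-4 and STAT3 for IL-21. In T cells IL-7 and IL-15 are known for survival and homeostasis, and IL-2 for expansion after antigen contact. The same chains are also carried by other lymphocytes: B cells use the IL-4 and IL-21 receptors, and NK cells depend on IL-15.

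The libraries held 10.2 to 27.6 M counts, so that 1 count was worth 0.0353 to 0.102 CPM, the unit used below, which sets the count of a gene against the TMM-adjusted size of its library. The defining markers of CD8 T cells were present in every library, with Cd8a and Cd8b1 together at 533 to 581 CPM in Naïve, 638 to 917 in αCD3, 549.5 to 641 in IFNγ and 480 to 618 in LPS. The 7 T cell genes summed to 1029 to 1181 CPM in Naïve, 1318 to 1501 in αCD3, 1064 to 1217 in IFNγ and 783 to 913 in LPS, so that αCD3 lay wholly above and LPS wholly below Naïve. Markers of B cells were present as well, and none of the 10 was at 0 in any library. Their summed level was 3380 to 3704 CPM in Naïve, 2375 to 2774 in αCD3, 2760 to 2904 in IFNγ and 1949 to 2973 in LPS, so the preparations were not CD8 T cells alone. The 9 myeloid markers summed to 421 to 834 CPM in Naïve, 292 to 445 in αCD3, 349 to 668 in IFNγ and 268 to 472 in LPS. The 5 NK cell markers, again none at 0, summed to 96.1 to 112 CPM in Naïve, 151 to 210 in αCD3, 109 to 228 in IFNγ and 101 to 286 in LPS. Eomes and Gzma, which CD8 T cells also express, made up most of that sum, with Naïve means of 63.7 and 30.8 CPM against 1.95, 5.30 and 4.21 for Ncr1, Klrb1c and Klre1. Of the 5, in the edgeR fit without a block only Eomes was called with αCD3 and with IFNγ, higher in both, and only Klrb1c with LPS, lower. With the replicate number as a block, 1 was called higher and 2 lower with αCD3, 2 and 0 with IFNγ, and 2 and 1 with LPS. That fit called 52.4%, 24.9% and 59.5% of all genes. The 3 CD4 T cell markers summed to 80.1 to 93.6 CPM in Naïve, 63.7 to 77.5 in αCD3, 71.9 to 86.7 in IFNγ and 50.9 to 61.2 in LPS. The 5 dendritic cell markers summed to 72.2 to 116 CPM in Naïve, 65.0 to 76.1 in αCD3, 46.3 to 69.9 in IFNγ and 70.5 to 94.2 in LPS. The 4 regulatory T cell markers summed to 138 to 196 CPM over all libraries, and their sums overlapped between the groups. None of these was at 0. The regulatory T cell sum held opposite moves. Foxp3 lay at 23.4 to 28.2 CPM in Naïve, 14.3 to 17.2 in αCD3, 18.0 to 25.3 in IFNγ and 15.9 to 19.9 in LPS. Ikzf2 lay above Naïve in every treated library. Of the 4, 2 were called higher and 1 lower with αCD3, 1 and 1 with LPS, and 1 and 0 with IFNγ. All genes were called at 38.6%, 49.3% and 12.4%. Since sums of T cell and of other markers moved with the treatments, and since in bulk RNA fewer cells of a type and less RNA per cell cannot be told apart, each level below is that of the whole preparation. The part of these cell types in the results was not tested.

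To find which chains responded to treatment, each treated group was compared with Naïve in 1 quasi-likelihood fit of edgeR over all 12 libraries, and a gene is referred to as called where its Benjamini-Hochberg adjusted p over all tested genes was under 0.05. With αCD3, Il2ra, Il15ra and Il2rg were higher and Il7r and Il4ra lower, which made 5 of 8 called, against 38.6% of all tested genes. With LPS, Il2ra, Il15ra, Il2rg and Il21r were higher and Il9r lower, again 5 of 8, against 49.3% of all genes. With IFNγ, Il15ra, Il2rg and Il2ra were higher and Il9r lower, 4 of 8 against 12.4%. Of the 7 T cell markers, 4 were called higher and 1 lower with αCD3, 6 lower and 0 higher with LPS, and 0 with IFNγ, where 2 had an unadjusted p under 0.05 and the blocked edgeR fit called 2 higher and 1 lower. The 3 comparisons share their Naïve libraries. Under scaling by total count alone, the higher and lower calls were 2 and 2 with αCD3, 2 and 3 with LPS and 2 and 2 with IFNγ, since Il4ra was then called lower with LPS (-0.80, edgeR adjusted p = 0.0228) and IFNγ (-0.82, edgeR adjusted p = 0.0495) and Il7r lower with LPS, while Il2rg lost its calls with αCD3 and LPS, Il21r its call with LPS and Il2ra its call with IFNγ. Over all genes, higher calls under that scaling made up 44.0% of calls with αCD3, 32.8% with LPS and 31.4% with IFNγ. With TMM scaling these shares were 59.3%, 54.7% and 65.6%. Scaling by total count alone called 2279 genes with IFNγ, against 1508 with TMM scaling. A fit that also held the replicate number as a block called 6, 8 and 5 members in αCD3, LPS and IFNγ, against 52.4%, 59.5% and 24.9% of all genes. When all 4 groups were tested jointly, 7 of 8 members were called, against 59.9% of all genes, and the exception, Il2rb (adjusted p = 0.176), was called in the blocked fit (adjusted p = 0.00199), as were 72.2% of all genes.

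**Figure D1:**
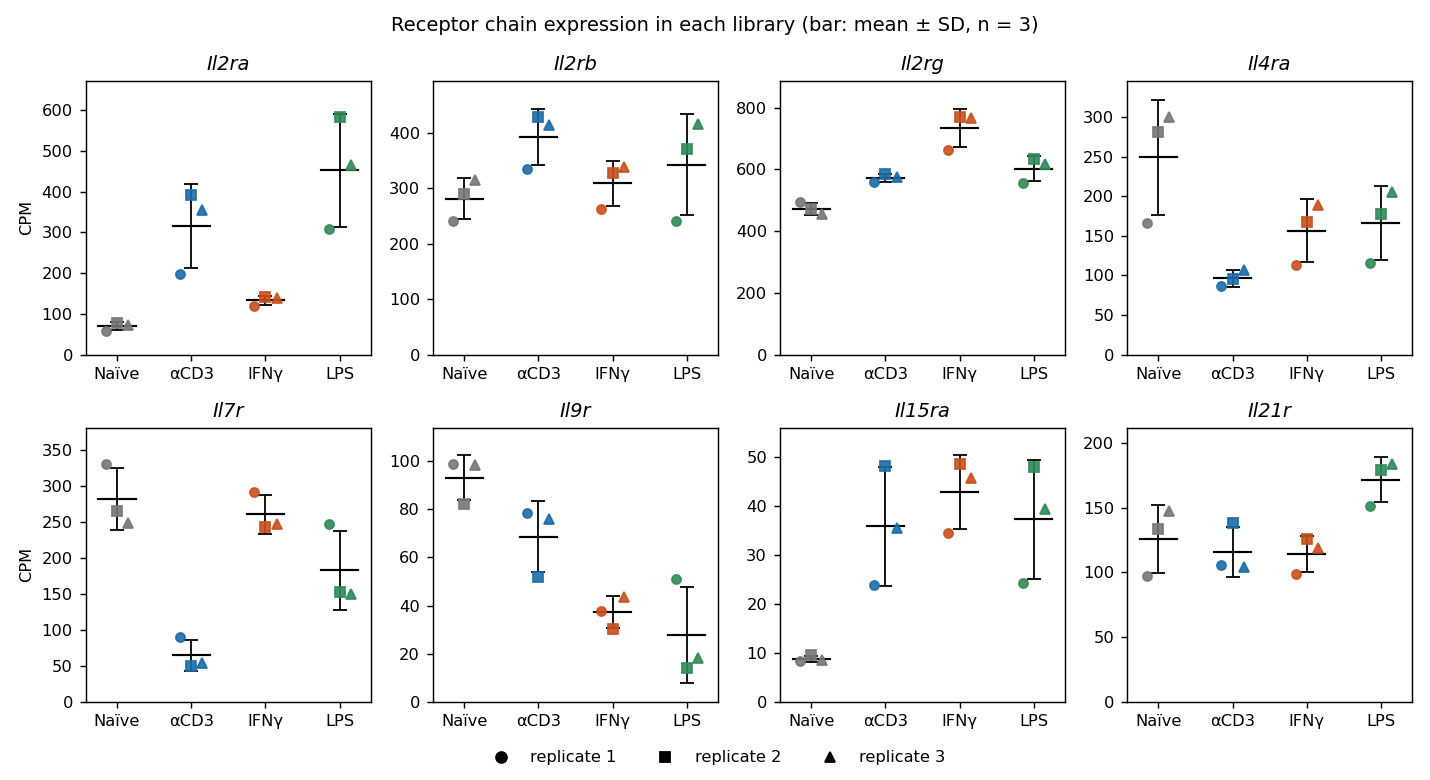
CPM (y axis, linear from 0) of the 8 receptor chains in each of the 12 libraries by group (x axis), with symbols for the replicate number and the group mean ± SD (n = 3) in black. Il2ra and Il15ra lie above their Naïve libraries in all 9 treated libraries, Il7r is lowest with αCD3 at 50.05 to 89.5 CPM, and Il9r is lowest in LPS replicates 2 and 3.

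The size of the changes was uneven among the chains. The median log2 fold change of the 8 members was 0.08 with αCD3, 0.01 with IFNγ and 0.32 with LPS, against -0.02, -0.02 and -0.01 over all tested genes, because chains that rose stood beside chains that fell. Without regard to sign, the median size of the log2 fold change was 0.93, 0.65 and 0.60 for the members and 0.33, 0.18 and 0.40 for all genes.

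**Figure D2:**
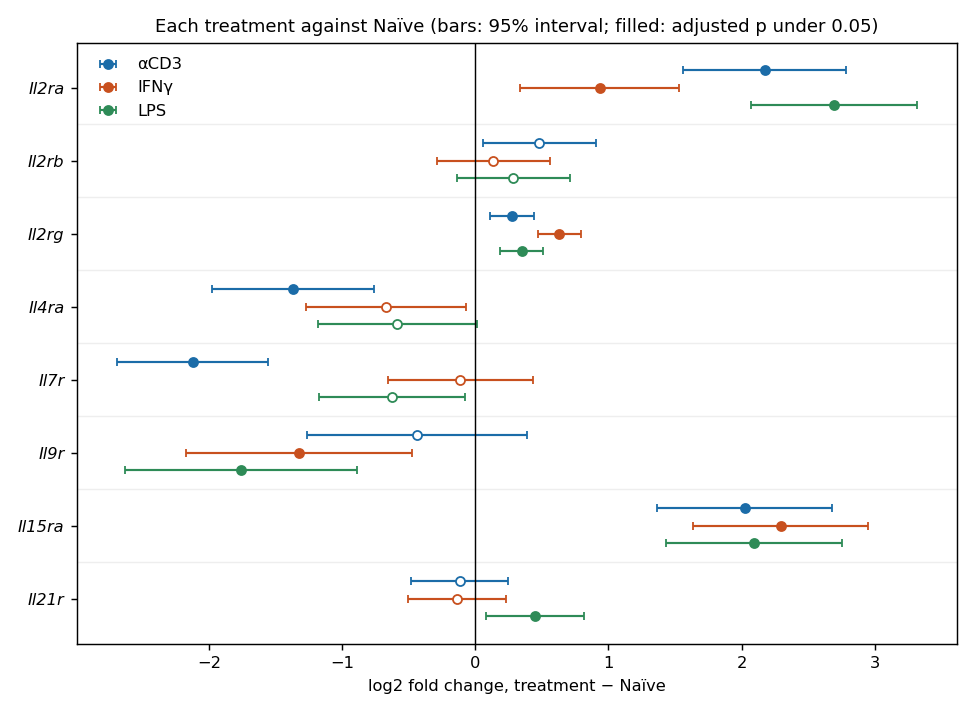
Log2 fold change of each receptor chain (y axis) in αCD3, IFNγ and LPS relative to Naïve (x axis), with 95% intervals from the fit of 3 libraries per group. Filled points had an adjusted p under 0.05. Il15ra lies between 2.02 and 2.29 in all 3 treatments, whereas Il7r lies at -2.12 with αCD3 and at -0.11 with IFNγ.

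Il2rg, the shared γc itself, was higher with all 3 treatments, by the smallest steps among the called chains and with the smallest standard errors. It lies on GRCm38 chromosome X from 101264378 to 101268255 on the minus strand. Naïve replicates 1 to 3 held 493, 471 and 454 CPM, αCD3 558, 585 and 574, IFNγ 662, 770.4 and 765, and LPS 555, 633 and 618. All 9 treated libraries lay above the 3 Naïve libraries, and the IFNγ libraries lay above all others. The log2 fold change from Naïve was 0.27 ± 0.074 with αCD3 (SE, n = 3 per group, edgeR adjusted p = 0.0138), 0.35 ± 0.074 with LPS (edgeR adjusted p = 0.00283) and 0.63 ± 0.074 with IFNγ (edgeR adjusted p = 5.80e-04). These changes were small, 1.21-, 1.27- and 1.55-fold, and the first was lost without Naïve replicate 3 (edgeR adjusted p = 0.0551) or without αCD3 replicate 2. When libraries were scaled by total count alone, the log2 fold changes with αCD3 and LPS were 0.16 and 0.14 and were not called. Of the 31-base words in its annotated transcripts, 71.3% occur in no other gene, since Gm20489, which overlaps it on the same strand, shares 700 of them, so its counts may be split with a neighbour that is not in the count table.

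Il2rb, the signalling beta chain of the IL-2 and IL-15 receptors, showed levels that overlapped in most comparisons. It lies on chromosome 15 from 78479256 to 78495271 on the minus strand. It was at 240.1, 289 and 314 CPM in Naïve, 334, 428 and 414 in αCD3, 262, 327 and 337 in IFNγ, and 240.1, 370.2 and 416 in LPS. Only the αCD3 libraries lay wholly above Naïve, and replicate 1 was the lowest library in all 4 groups. No comparison passed the test in the fit without a block, in which the log2 fold change with αCD3 was 0.48 ± 0.19 (SE, edgeR adjusted p = 0.0710, 95% interval 0.05 to 0.91). With the replicate number as a block, Il2rb was called higher with αCD3 (0.48 ± 0.081, edgeR adjusted p = 7.02e-04) and with LPS (0.26 ± 0.082, edgeR adjusted p = 0.0186). Leaving out LPS replicate 1 also brought calls with αCD3 and with LPS in the unblocked fit, and leaving out αCD3 replicate 1 brought the call with αCD3, as did DESeq2 (0.47, adjusted p = 0.0475).

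Il2ra encodes the alpha chain CD25, which raises the affinity of the receptor for IL-2 and is a classical mark of T cell activation. The gene lies on chromosome 2 from 11642807 to 11693193 on the plus strand. Its 3 Naïve libraries held 59.1, 77.7 and 72.9 CPM, against 198, 392 and 356 with αCD3, 309, 584 and 465 with LPS, and 120.2, 141 and 139 with IFNγ. The groups formed steps without overlap from Naïve to IFNγ and from IFNγ to αCD3 or LPS, while αCD3 and LPS overlapped. The log2 fold change was 2.70 ± 0.28 with LPS (SE, edgeR adjusted p = 3.51e-05), 2.17 ± 0.28 with αCD3 (edgeR adjusted p = 2.09e-04) and 0.93 ± 0.27 with IFNγ (edgeR adjusted p = 0.0469), or 6.48-, 4.51- and 1.91-fold. The changes with LPS and αCD3 were called in each of the 12 fits that left out 1 library. The change with IFNγ was called only in the 4 such fits that left out αCD3 replicate 1 or 2 or LPS replicate 1 or 2, and without Naïve replicate 1 it was 0.83 (edgeR adjusted p = 0.141). It was also lost with RLE factors (edgeR adjusted p = 0.0521), with no count filter (edgeR adjusted p = 0.0852) and under scaling by total count alone (edgeR adjusted p = 0.0506), and so was called in 6 of 17 other settings. Each replicate number nonetheless showed it, with log2 ratios of 0.86 to 1.02 between the IFNγ and Naïve libraries that share a number, and the blocked fit called it (edgeR adjusted p = 0.00223).

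As Il2ra rose most with LPS and αCD3, the sequence before its RefSeq start site was searched for motifs of factors that act in lymphocyte activation. The 250 bases before the start (GRCm38.p6, chr2:11642542-11642791, plus strand) are given with the match to the NF-κB consensus in capitals. The capitals cover 2 overlapping matches, which begin at positions -201 and -200.

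Il2ra: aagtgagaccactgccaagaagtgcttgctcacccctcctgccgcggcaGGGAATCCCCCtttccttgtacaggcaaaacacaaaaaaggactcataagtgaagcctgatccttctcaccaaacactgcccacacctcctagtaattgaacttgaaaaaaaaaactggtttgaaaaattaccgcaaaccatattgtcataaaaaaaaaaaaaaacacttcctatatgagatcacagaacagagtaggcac

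Of 32851 RefSeq windows that run from 250 bases before to 50 bases after a start, 8.46% hold this consensus on either strand, and 2 of the 8 member windows did, those of Il2ra and Il4ra. The 8 windows belong to 7 of the 8 genes. A match of letters is a description of the window and not a binding site shown by these data.

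Il15ra, the private alpha chain that binds IL-15 and can present it to neighbouring cells, was the chain that changed alike with all 3 treatments. It lies on chromosome 2 from 11705290 to 11734317 on the plus strand. It was low in Naïve, at 8.39, 9.46 and 8.47 CPM, which rest on 172, 121 and 140 estimated counts. It reached 23.9, 48.2 and 35.4 CPM with αCD3, 34.4, 48.7 and 45.8 with IFNγ, and 24.2, 48.1 and 39.5 with LPS. Every treated library lay above every Naïve library, and replicate 1 was lowest and replicate 2 highest in all 4 groups. The log2 fold change was 2.29 ± 0.30 with IFNγ (SE, edgeR adjusted p = 0.00108), 2.09 ± 0.30 with LPS (edgeR adjusted p = 2.62e-04) and 2.02 ± 0.30 with αCD3 (edgeR adjusted p = 4.67e-04), or 4.90-, 4.27- and 4.06-fold. All 3 changes were called in each of the 17 other settings tried. The treatments were not separated from each other: IFNγ minus αCD3 was 0.27 (95% interval -0.34 to 0.88), IFNγ minus LPS 0.20 (-0.41 to 0.81) and αCD3 minus LPS -0.07 (-0.68 to 0.54).

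A window of Il15ra, from 11705462 to 11705761 and so downstream of the annotated gene start at 11705290, held the letters TGANTCA of the AP-1 motif. This is the site of Fos and Jun factors, and its letters occur in 7.81% of all windows on either strand. Among the 8 member windows this was the only match, and it is shown in capitals within 30 bases (chr2:11705672-11705701, plus strand), where it begins at position -30.

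Il15ra: gtggggatgcTGAGTCAcagatctgtcacc

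The core of the interferon-stimulated response element occurred in 3.44% of all windows on either strand and in 0 of the 8 member windows, which says only that its letters are not in these stretches.

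Il7r, the alpha chain of the IL-7 receptor and a mark of resting and memory T cells, fell with αCD3 and did not pass the test with IFNγ. It lies on chromosome 15 from 9505788 to 9530176 on the minus strand. The Naïve libraries held 331, 265 and 249 CPM, and the αCD3 libraries 89.5, 50.05 and 53.6. IFNγ held 292, 243 and 247 CPM, which overlapped Naïve, and LPS held 247, 152 and 150.0, all below Naïve. Replicate 1 was the highest library in all 4 groups. The log2 fold change was -2.12 ± 0.26 with αCD3 (SE, edgeR adjusted p = 1.57e-04), a 4.36-fold lower level, which was called in each of the 17 other settings. With IFNγ it was -0.11 ± 0.25 (edgeR adjusted p = 0.825, 95% interval -0.66 to 0.43). With LPS it was -0.62 ± 0.25 (edgeR adjusted p = 0.0573), which became a call with the block (-0.65 ± 0.11, edgeR adjusted p = 5.81e-04), without LPS replicate 1 (-0.90, edgeR adjusted p = 0.0104) or without αCD3 replicate 1, and also with RLE factors (edgeR adjusted p = 0.0461), under scaling by total count alone (-0.83, edgeR adjusted p = 0.0223) and with DESeq2 (adjusted p = 0.0191), in 6 of 17 other settings in all.

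The Il7r window was the only one of the 8 to hold the letters TTCNNNGAA, the GAS motif to which STAT dimers bind, against 8.30% of all windows on either strand. It begins at position -142 and is shown in capitals within 100 bases (chr15:9529967-9530066, minus strand).

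Il7r: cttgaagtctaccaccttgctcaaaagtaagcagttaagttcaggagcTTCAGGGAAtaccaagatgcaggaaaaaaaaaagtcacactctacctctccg

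The forkhead motif GTAAACA, which Foxo1 and its relatives bind, occurred in 3.65% of all windows on either strand and in 1 member window, that of Il21r.

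Il4ra, the IL-4 receptor alpha chain that also serves IL-13, was lower with αCD3, and with IFNγ and LPS in the blocked fit. It lies on chromosome 7 from 125552120 to 125579474 on the plus strand. It stood at 166, 282 and 300.4 CPM in Naïve, 86.1, 96.0 and 107 in αCD3, 113, 167 and 189 in IFNγ, and 115, 178 and 206 in LPS. The αCD3 libraries lay below every Naïve library, while the IFNγ and LPS libraries overlapped Naïve through its replicate 1, which was the lowest library of each group. With αCD3 the log2 fold change was -1.37 ± 0.27 (SE, edgeR adjusted p = 0.00308), called in each of the 17 other settings. It was -0.67 ± 0.27 with IFNγ (edgeR adjusted p = 0.147) and -0.59 ± 0.27 with LPS (edgeR adjusted p = 0.0961). Between libraries of the same number Il4ra was lower in 3 of 3 pairs with IFNγ, by log2 ratios of -0.75 to -0.56, and the blocked fit called it in IFNγ (edgeR adjusted p = 0.00166) and in LPS (edgeR adjusted p = 9.64e-04). Without Naïve replicate 1 the unblocked fit called it in LPS too (edgeR adjusted p = 0.0271). The antisense gene Gm44876, which is not in the count table, shares 541 of its 31-base words, and without knowledge of strand in the counting the reads of such partners cannot be told apart. The B cell markers, another cell type with IL-4 receptors, were called lower for 4 of 10 genes with αCD3, 2 with IFNγ and 4 with LPS, where 1 was higher, and myeloid markers for 4 of 9 with αCD3 and 4 with LPS, where 1 was higher. In the same comparisons 38.6% (αCD3), 12.4% (IFNγ) and 49.3% (LPS) of all genes were called in either direction. In the blocked fit, which called Il4ra with all 3 treatments, B cell markers were lower for 7 with αCD3, 2 with IFNγ (1 higher) and 4 with LPS (2 higher), and myeloid markers for 8 with αCD3, 3 with IFNγ (1 higher) and 7 with LPS (1 higher), against 52.4%, 24.9% and 59.5% of all genes called in αCD3, IFNγ and LPS.

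Il9r, the private chain for IL-9, was lower with LPS and IFNγ. It lies on chromosome 11 from 32187541 to 32200279 on the minus strand. Naïve held 99.0, 82.3 and 98.5 CPM, αCD3 78.4, 51.9 and 75.9, IFNγ 37.8, 30.3 and 43.6, and LPS 50.9, 14.2 and 18.3. All 9 treated libraries lay below the lowest Naïve library, and replicate 2 was the lowest in every group. The log2 fold change was -1.76 ± 0.39 with LPS (SE, edgeR adjusted p = 0.00404), -1.33 ± 0.38 with IFNγ (edgeR adjusted p = 0.0478) and -0.44 ± 0.37 with αCD3 (edgeR adjusted p = 0.376). LPS replicate 1 stood apart at 50.9 CPM, and without it the change with LPS was -2.52 (edgeR adjusted p = 2.89e-05). The same library had the highest summed B cell markers of its group, 2973 CPM against 1949 and 2004, and the lowest myeloid (268 against 451 and 472), NK cell (101 against 286 and 262) and regulatory T cell markers (138 against 188 and 196). Replicate 1 was lowest for the myeloid, NK cell and regulatory T cell sums in every group, so these do not set this library apart. It was also highest for B cell markers in αCD3 and IFNγ, though not in Naïve. The call with IFNγ was lost in the 9 fits that left out 1 Naïve, αCD3 or IFNγ library (edgeR adjusted p up to 0.172) and with no count filter (edgeR adjusted p = 0.0791) and was kept in the 3 that left out an LPS library, and the blocked fit called it (edgeR adjusted p = 0.0194).

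Il21r, the private chain for IL-21, was called against Naïve with LPS and not with the other treatments. It lies on chromosome 7 from 125603429 to 125633570 on the plus strand. It was at 96.9, 134 and 147 CPM in Naïve, 106, 138 and 104 in αCD3, 98.8, 126 and 119 in IFNγ, and 152, 179 and 184 in LPS. The 3 LPS libraries lay above all 9 others, which overlapped each other. The log2 fold change with LPS was 0.45 ± 0.17 (SE, edgeR adjusted p = 0.0433), and it was -0.12 ± 0.17 with αCD3 (edgeR adjusted p = 0.601) and -0.14 ± 0.17 with IFNγ (edgeR adjusted p = 0.665). The LPS call was lost in 7 of 12 fits that left out a library, namely Naïve replicate 1 or 2, αCD3 replicate 3, IFNγ replicate 2 or 3 and LPS replicate 2 or 3 (highest edgeR adjusted p = 0.142), and under scaling by total count alone the value was 0.24 (edgeR adjusted p = 0.211). It was also lost with RLE factors (edgeR adjusted p = 0.0517) and with no count filter (edgeR adjusted p = 0.0646), which left it called in 7 of 17 other settings. The blocked fit called it (edgeR adjusted p = 0.00339). B cells use this receptor too, and of their 10 markers 4 were called lower and 1 higher with LPS, against 49.3% of all genes. With the block 4 were lower and 2 higher, against 59.5%. The part of B cells in the Il21r level was not tested.

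To see how the IFNγ profile of the receptors differed from those of αCD3 and LPS, the treatments were also compared with each other. Between IFNγ and αCD3, 3 of 8 members were called, against 37.2% of all genes: Il7r was 2.01 ± 0.26 log2 higher with IFNγ (SE, edgeR adjusted p = 1.83e-04), Il2rg 0.36 ± 0.074 higher (edgeR adjusted p = 0.00324) and Il2ra 1.24 ± 0.27 lower, a log2 fold change of -1.24 (edgeR adjusted p = 0.00456). All 3 were called in each of the 12 fits that left out a library. The blocked fit added Il4ra, higher with IFNγ (0.66, edgeR adjusted p = 6.62e-04), and Il2rb, lower with IFNγ (-0.35, edgeR adjusted p = 0.00508), which made 5 of 8 against 49.7%. In the unblocked fit, Il4ra was called without Naïve replicate 1, IFNγ replicate 1 or LPS replicate 1, and Il9r, lower with IFNγ, without LPS replicate 1 (edgeR adjusted p = 0.00385). DESeq2 called both (adjusted p = 0.0241 for Il4ra and 0.0478 for Il9r).

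Between IFNγ and LPS, 3 of 8 members were called, against 40.4% of all genes. Il2ra was lower with IFNγ (-1.76 ± 0.27, SE, edgeR adjusted p = 4.93e-04), Il21r was lower (-0.59 ± 0.17, edgeR adjusted p = 0.0161) and Il2rg was higher (0.28 ± 0.074, edgeR adjusted p = 0.0106). The Il21r call was lost without IFNγ replicate 1 (edgeR adjusted p = 0.0645) and without LPS replicate 2 or 3. Il9r differed by 0.43 ± 0.39 (edgeR adjusted p = 0.408), but by 1.19 without LPS replicate 1 (edgeR adjusted p = 0.00214). Il7r was 0.51 ± 0.25 higher with IFNγ (edgeR adjusted p = 0.124) and was called in the blocked fit (0.55 ± 0.11, edgeR adjusted p = 0.00201) and without LPS replicate 1. The blocked fit called 4 of 8 members, against 52.7% of all genes.

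Between αCD3 and LPS, 3 of 8 members were called, against 19.4% of all genes. Il7r was lower with αCD3 (-1.50 ± 0.25, SE, edgeR adjusted p = 0.00252), Il21r was lower (-0.57 ± 0.17, edgeR adjusted p = 0.0357) and Il9r was higher (1.32 ± 0.39, edgeR adjusted p = 0.0384). Of these 3, the Il7r call was kept in each of the 12 fits that left out a library. Il9r lost its call in 8 of them and was 2.08 without LPS replicate 1 (edgeR adjusted p = 2.64e-04), and it lost it without any 1 Naïve library, αCD3 replicate 1 or 3, IFNγ replicate 3 or LPS replicate 2 or 3, and with no count filter (1.34, edgeR adjusted p = 0.0649). Il21r lost its call in 6, without Naïve replicate 2, αCD3 replicate 1 or 3, IFNγ replicate 3 or LPS replicate 2 or 3, and under scaling by total count alone (-0.47, edgeR adjusted p = 0.0522). The blocked fit added Il2ra (-0.53, edgeR adjusted p = 0.0199) and Il4ra (-0.74, edgeR adjusted p = 6.93e-04), both lower with αCD3, which made 5 of 8 against 34.7%. Il4ra was also called by DESeq2 (adjusted p = 0.0201) and by the unblocked edgeR fit without Naïve replicate 1 (adjusted p = 0.0406) or LPS replicate 1 (adjusted p = 0.0264).

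**Figure D3:**
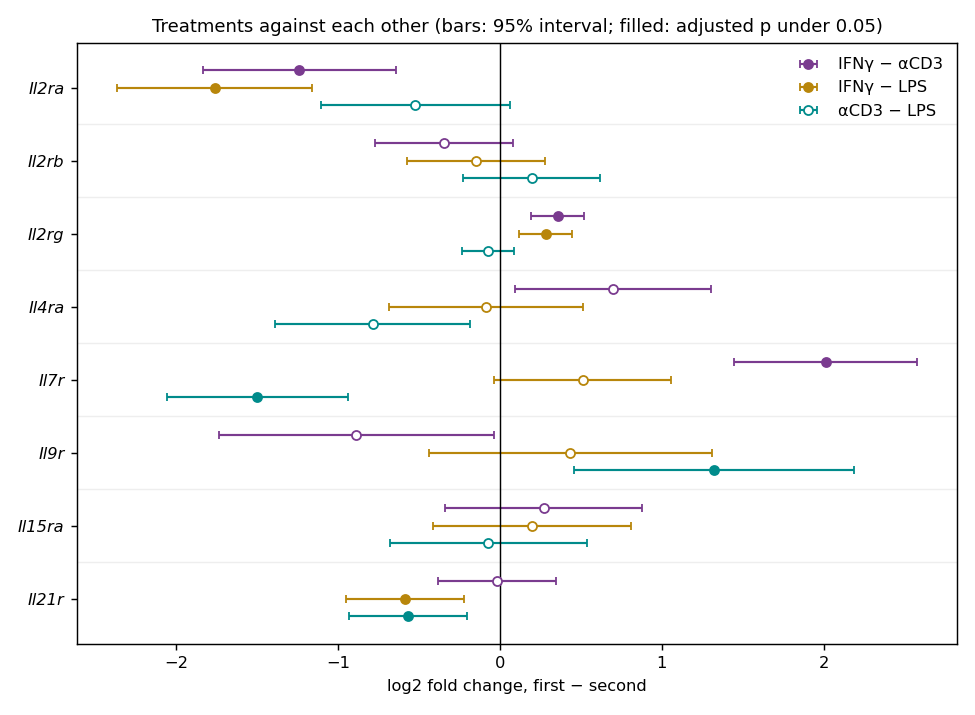
Log2 fold change of each receptor chain (y axis) between pairs of treatments, the first minus the second (x axis), with 95% intervals from the fit of 3 libraries per group. Filled points had an adjusted p under 0.05. Il7r separates αCD3 from both other treatments, at 2.01 for IFNγ minus αCD3 and -1.50 for αCD3 minus LPS, and Il15ra separates no pair.

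Levels were compared between chains only after division by the length of the principal annotated transcript, as CPM per kilobase (kb). On that scale the common chain Il2rg stood first in all 4 groups, with no overlap with the next chain, at means of 283 ± 11.6 (SD, n = 3) in Naïve, 343 ± 8.04 in αCD3, 439 ± 36.8 in IFNγ and 360.5 ± 24.7 in LPS. In Naïve it was followed by Il7r (79.6), Il2rb (67.0), Il21r (50.4) and Il4ra (47.5), each overlapping its neighbour, and then by Il9r (20.8), Il2ra (15.8) and Il15ra (5.48), each separated from the next. With αCD3 the order after Il2rg was Il2rb (93.5), Il2ra (71.5) and Il21r (46.4), which overlapped in turn, and then Il15ra (22.4), Il4ra (18.3), Il7r (18.2) and Il9r (15.3), which also did. With IFNγ, Il7r (73.7) and Il2rb (73.6) overlapped and stood above Il21r (45.8). Il2ra (30.3), Il4ra (29.8) and Il15ra (26.8) followed with overlapping libraries, and Il9r (8.31) was last. With LPS, Il2ra (102.6), Il2rb (81.5), Il21r (68.7) and Il7r (51.7) overlapped in turn, and Il4ra (31.6), Il15ra (23.3) and Il9r (6.21) followed, the last below both.

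**Figure D4:**
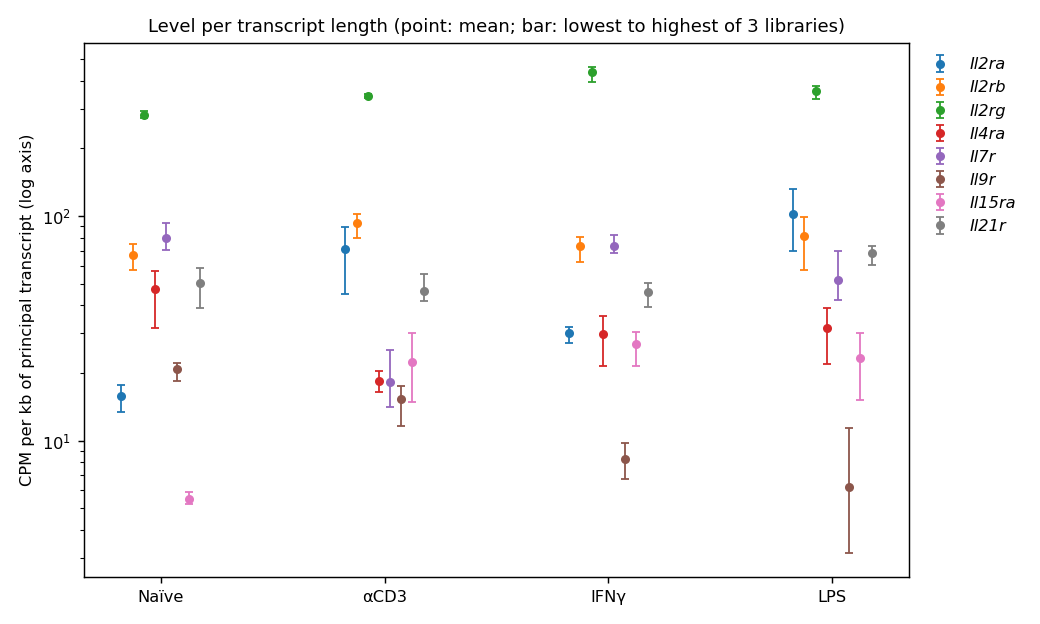
Mean CPM per kb of the principal transcript (y axis, log scale) for the 8 receptor chains in each group (x axis), with bars from the lowest to the highest of 3 libraries. Il2rg lies above all other chains in every group, at 283 to 439, Il2ra moves from 15.8 in Naïve to 102.6 with LPS, and Il7r from 79.6 in Naïve to 18.2 with αCD3.

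The order of neighbours depended on which length was used. Il15ra has 18 annotated transcripts, with a principal transcript of 1600 bases and 4446 bases of exons in all, and by the exon length it was at 8.06 CPM per kb with αCD3 and the lowest of the 8 chains. Il2rg was first by both lengths in all 4 groups.

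The other genes of the pathway were taken from a list of 35 genes, of which 32 were tested. In αCD3 6 rose and 5 fell, in LPS 9 rose and 5 fell, and in IFNγ 4 rose and 1 fell, with medians of 0.07, 0.20 and 0.02 on the log2 scale. The called genes, 11, 14 and 5 of 32, stood beside 38.6%, 49.3% and 12.4% of all tested genes. With the block the counts were 10 and 11, 12 and 8, and 6 and 2, against 52.4%, 59.5% and 24.9% of all genes called. Under scaling by total count alone they were 4 and 5, 7 and 10, and 2 and 2. Higher calls then made up 44.0%, 32.8% and 31.4% of the calls over all genes. With no count filter the IFNγ counts were 2 and 1. The ligands were scarce in these cells. Il7, at 1 to 5 estimated counts per library, and Il9, at 0 to 17, did not pass the filter. Il2 held 41 to 223 counts, Il4 15 to 65, Il15 0 to 21 and Il21 1 to 42, and 0 of their 12 comparisons with Naïve were called by the unblocked edgeR fit. Naïve replicate 3 decided this for Il15, which without it was called higher with all 3 treatments, and whose log2 fold changes then moved from 2.12, 1.77 and 1.75 to 4.07, 3.71 and 3.69 in αCD3, IFNγ and LPS. The other Naïve libraries held 0 and 1.76 estimated counts of Il15, so these fitted values depend on the prior count and give no bound on the fold. Without αCD3 replicate 1, Il15 and Il21 were called higher with αCD3. Of those 12, 2 had an unadjusted p under 0.05, and DESeq2 called 2, Il15 and Il21 with αCD3, both higher. With αCD3 the blocked fit called Il21 (edgeR adjusted p = 0.0139) and Il15 (edgeR adjusted p = 0.0427) higher and Il4 (edgeR adjusted p = 0.0396) lower.

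Among the kinases and STATs that the receptors use, Jak1 and Jak3 were not called against Naïve in the unblocked fit, and with the block Jak1 was called lower with αCD3 (-0.21 ± 0.036, SE, edgeR adjusted p = 7.04e-04) and LPS (-0.12 ± 0.036, edgeR adjusted p = 0.0131). Under scaling by total count alone both were called lower with LPS. Stat5a rose with LPS and αCD3 and fell with IFNγ, where the log2 fold change was -0.38 ± 0.093 (SE, edgeR adjusted p = 0.0239). Its levels were 145, 161 and 173 CPM in Naïve, 206, 246 and 244 in αCD3, 116, 128 and 125 in IFNγ, and 315, 353 and 362 in LPS, without overlap between any of the groups. The call with IFNγ was lost without Naïve replicate 2 or 3 or any 1 IFNγ library (edgeR adjusted p up to 0.0992). Stat5b fell with αCD3 (-0.62 ± 0.068, edgeR adjusted p = 6.78e-05). Stat3 stood at 422, 437 and 439 CPM in Naïve, 463, 603 and 563 in αCD3, 601, 605 and 595 in IFNγ, and 678, 1001 and 905 in LPS, and every treated library lay above Naïve. It rose with LPS (0.99 ± 0.13, edgeR adjusted p = 1.33e-04), a call kept in each of the 12 fits that left out a library. It also rose with IFNγ (0.47 ± 0.13, edgeR adjusted p = 0.0368), a call that was kept only in the fits without αCD3 replicate 1 or 2 or LPS replicate 1 or 2 and was lost under scaling by total count alone and with no count filter, and the blocked fit called it higher with αCD3 too (edgeR adjusted p = 0.0202).

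Socs1, a feedback inhibitor of Janus kinases, had the largest called rise of the list with IFNγ, from 50.2, 77.2 and 115 CPM in Naïve to 331, 308 and 399. Its log2 fold change was 2.10 ± 0.53 with IFNγ (SE, edgeR adjusted p = 0.0272) and 1.55 ± 0.52 with LPS (edgeR adjusted p = 0.0306), where LPS replicate 1 stood at 88.0 CPM against 318 and 303. Both calls were lost without Naïve replicate 1 or 2, without replicate 2 or 3 of the treated group, and with no count filter. Socs3, another feedback inhibitor, fell with αCD3 by 1.24 ± 0.29 (edgeR adjusted p = 0.00702) and rose with LPS by 0.90 ± 0.28 (edgeR adjusted p = 0.0238). LPS replicates 1 to 3 held 315, 657 and 656 CPM of Socs3 against 207, 308 and 360 in Naïve, so the groups overlapped, and the rise was lost without Naïve replicate 1 or 2 or LPS replicate 2 or 3, and under scaling by total count alone. The growth genes Ccnd2, which encodes cyclin D2, and Myc lie downstream of these receptors among other signals. Ccnd2 rose with all 3 treatments, by 1.84 ± 0.33 with αCD3 (edgeR adjusted p = 0.00161), 1.44 ± 0.33 with IFNγ (edgeR adjusted p = 0.0171) and 2.95 ± 0.34 with LPS (edgeR adjusted p = 7.04e-05), and the IFNγ call was lost without Naïve replicate 1 or 2 or IFNγ replicate 2 or 3. Myc rose by 1.75 ± 0.15 with αCD3 (edgeR adjusted p = 1.90e-05) and 1.98 ± 0.15 with LPS (edgeR adjusted p = 5.12e-06). Bcl6, a transcriptional repressor, fell by 0.82 ± 0.17 with LPS (edgeR adjusted p = 0.00270). It was also called lower with αCD3, at a log2 fold change of -0.61 (edgeR adjusted p = 0.0164), and in 14 of 17 other settings there.

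The list also held transcription factors known to control Il7r. Gfi1, a repressor of Il7r, rose with αCD3 by 1.66 ± 0.11 (SE, edgeR adjusted p = 5.76e-06) and was 0.06 ± 0.11 with LPS and 0.27 ± 0.11 with IFNγ, neither called. Klf2, a factor of quiescent T cells, fell by 0.87 ± 0.22 with αCD3 (edgeR adjusted p = 0.0101) and by 0.57 ± 0.22 with LPS (edgeR adjusted p = 0.0491), where the call was lost in 8 of 12 fits that left out a library and kept without αCD3 replicate 1 or 2, IFNγ replicate 1 or LPS replicate 1, and was also lost with no count filter. Ets1, which binds the Il7r locus, fell with LPS by 0.69 ± 0.074 (edgeR adjusted p = 3.29e-05). Foxo1 was not called in the unblocked fit, and the blocked fit called it lower with αCD3 (edgeR adjusted p = 0.00483) and LPS (edgeR adjusted p = 0.00116).

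**Figure D5:**
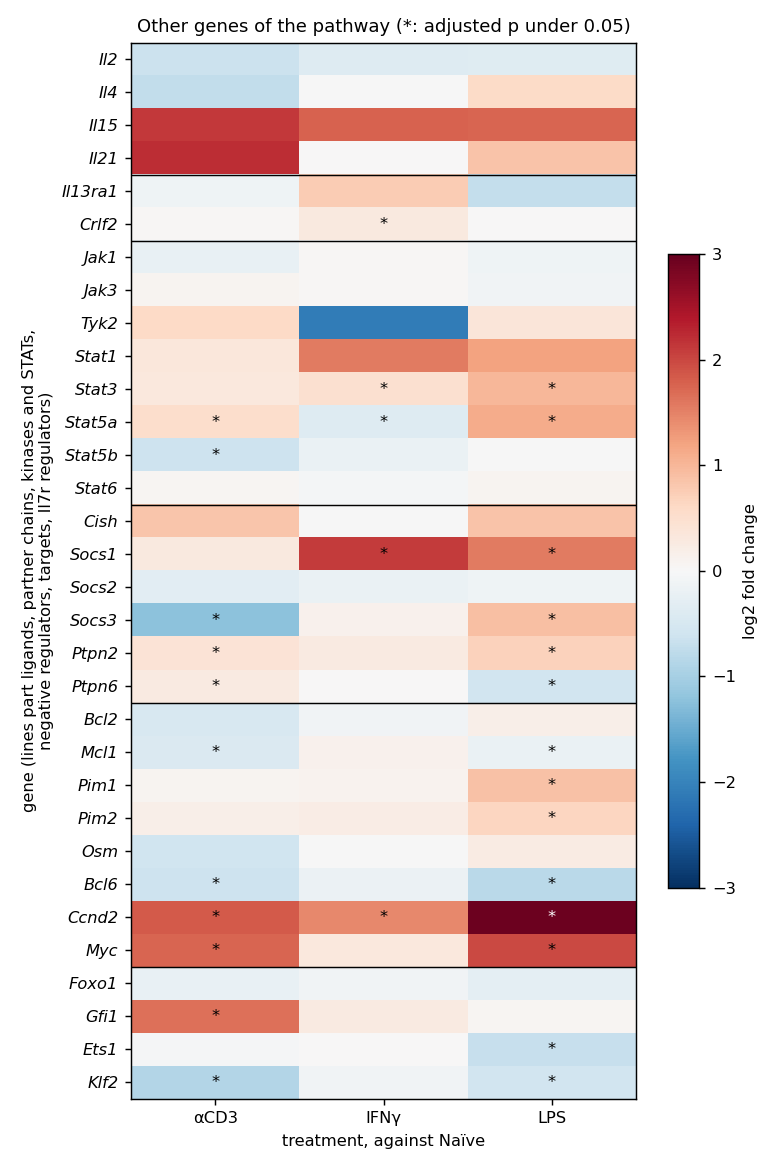
Log2 fold change from Naïve (colour) of the 32 tested genes of the γc pathway list (y axis, grouped by role) in αCD3, IFNγ and LPS (x axis), with an asterisk where the adjusted p was under 0.05. Ccnd2 is the gene marked in all 3 treatments with a rise, at 1.84, 1.44 and 2.95, and Stat5a is marked in all 3 with a fall in IFNγ.

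The genes whose level moved most alike with each chain were found by Pearson's r of log2 CPM over the 12 libraries among the 9449 tested genes that averaged 5 CPM or more. These r values are a description, since the points share the group differences and the replicate numbers. The best matches were Psme1 (0.996), Max (0.977) and Hnrnph2 (0.967) for Il15ra, Rars (0.992), Rsl24d1 (0.992) and Noc4l (0.990) for Il2ra, and Saraf (0.987), Slc6a19 (0.976) and Smpdl3a (0.976) for Il7r. Il2rg was most like Tapbpl (0.980) and Amigo2 (0.975), and Il2rb like Ndufa8 (0.975), Cndp2 (0.961) and Sec61b (0.948). For Il4ra they were Metrnl (0.967), Tacc3 (0.955) and Ubtd1 (0.932), for Il9r Midn (0.958), Scn4a (0.957) and Kcnc1 (0.956), and for Il21r Rab20 (0.921), Mreg (0.906) and Rnf11 (0.904).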

How the data were processed

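CD8 T cells of mouse spleen were profiled by RNA-seq in 12 libraries (NucleoSpin RNA, INCPM mRNA Seq). Reads had been quantified by the authors with Kallisto (genome mm10, per the labels), who deposited estimated counts per gene symbol for each library, and the submitters' notes also name DESeq2 1.24.0. The Kallisto version, the transcript annotation and the strandedness of the counting are not given in the sources used here. Libraries were grouped by GEO's labels alone.

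The estimated counts were rounded to whole numbers and tested with edgeR 4.0.16 in R 4.3.3 (TMM, filterByExpr, robust glmQLFit and glmQLFTest, group as the only term, 6 contrasts and 1 joint test, Benjamini-Hochberg adjustment over 12122 genes, threshold 0.05). The procedure was tested on simulated data. CPM use TMM-scaled library sizes, and r values use log2 CPM with a prior count of 2. The alternatives were RLE factors, total count alone, no count filter, DESeq2 1.42.0, the replicate block and leaving out each library. Replicate numbers paired the samples by the data: deviations from group means correlated at 0.117 to 0.401 in all 18 same-numbered pairs of libraries and at -0.354 to 0.102 in the others. The labels do not say what a number stands for.

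Coordinates and lengths come from GENCODE M21 (GRCm38) and start-site sequences from RefSeq (GRCm38.p6). Windows were found for 7 of the 8 genes, and all motifs were searched on both strands. Ligands were named with their counts, and of the other pathway genes the 3 largest rises and the 3 largest falls among called genes in each comparison with Naïve. Jak1, Jak3, Foxo1 and the values of Stat5a, Stat3, Socs3 and Bcl6 outside the comparisons that the rule names were added after they were seen. The 3 genes most alike were named for each chain, except 1 that is not reported here. Members, gene lists and motifs were chosen with earlier results of these data known. The p-values cover the spread between libraries only.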

Additional observations from a re-analysis of the deposited data

How the results depend on the processing

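Of 816 refitted log2 fold changes of the 8 chains (6 comparisons, 17 other settings), 729 kept their side of the threshold, 54 lost a call, 33 gained one and 0 reversed. The number of members called moved by over 1.5 times with no count filter, where IFNγ against Naïve had 2, and with DESeq2, where IFNγ against αCD3 had 5. The share of all genes called with no count filter and with DESeq2 is not given here. With the replicate block the number of members called was 8 for LPS against Naïve, 5 for IFNγ against αCD3 and 5 for αCD3 against LPS. In these comparisons the block called 59.5%, 49.7% and 34.7% of all genes. Beyond the calls named beside each chain the block changed no other member's call. Over the fits that left out 1 library, members called ranged from 4 to 6 (αCD3), 2 to 4 (IFNγ) and 4 to 7 (LPS) against Naïve, from 3 to 5 for IFNγ against αCD3, 2 to 5 for IFNγ against LPS, 1 to 4 for αCD3 against LPS and 6 to 8 for any difference, and leaving out LPS replicate 1 gave the highest count in each, though not always alone. Over all genes, the same fits called 3130 to 4958 (αCD3), 787 to 1651 (IFNγ) and 4760 to 6144 (LPS) against Naïve. They called 3462 to 4692 for IFNγ against αCD3, 3930 to 5077 for IFNγ against LPS and 1429 to 2590 for αCD3 against LPS. Each of these highest counts also came without LPS replicate 1. Pathway genes called in these fits ranged from 8 to 16, 0 to 6 and 9 to 16 against Naïve. Over all genes, IFNγ against Naïve had 1508 calls, 3020 with the block, 2279 by total count alone and 787 without IFNγ replicate 2, and αCD3 against LPS had 2351, 4202 with the block and 1429 without LPS replicate 2. Scaling by total count alone moved the median of all genes to -0.13 (αCD3), -0.16 (IFNγ) and -0.22 (LPS), and the share of higher calls from 59.3% to 44.0%, from 65.6% to 31.4% and from 54.7% to 32.8%, and for αCD3 against LPS from 49.7% to 68.8%. Under it the pathway gene Crlf2, not called in LPS at 0.02, went to -0.19, much as the median of all genes went from -0.01 to -0.22. The cause of these shifts was not tested. The ligands rest on few counts, at most 223 in any library.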
